A study of Mus musculus with 16 samples.

Results

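Genes that stop the cell cycle and the p53 pathway that controls one of them were examined for 3 chromatin features in immortalized mouse embryonic fibroblasts. The 10 genes were Cdkn1a, Cdkn1b and Cdkn1c (the CIP/KIP family), Cdkn2a, Cdkn2b, Cdkn2c and Cdkn2d (the INK4 family and ARF), and Trp53, Mdm2 and Bax. They were chosen by name, with earlier results of these data known. Every listed region within 50 kb of the mm10 body of a gene was taken, which gave 74 of the 135884 regions deposited for the series. Of these, 10 were succinyllysine regions, 37 were H3K4me3 regions and 27 were H3K27me3 regions. Chromatin immunoprecipitation and sequencing (ChIP-seq) had been done on an experimental line (R26M2rtTA/+;TetOcre;Sdhcfl/fl) and a control line (R26M2rtTA/+;TetOcre;Sdhcfl/wt). In both lines doxycycline, through the rtTA activator expressed from Rosa26, turns on a Cre recombinase that recombines floxed Sdhc, the gene of a membrane anchor subunit of succinate dehydrogenase. Both lines were taken at day 16 of 1 µg/mL doxycycline, and each gave 2 samples per antibody and 2 of input chromatin, 16 samples in all. A single list of positions was analysed per antibody, for its 4 ChIP samples together, so fl/fl and fl/wt cells cannot be told apart in any value here and no value has a replicate error.

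Cyclin-dependent kinases drive the cell through its cycle, and their inhibitors stop it. INK4 proteins bind the kinases Cdk4 and Cdk6, while CIP/KIP proteins act on a wider set of cyclin-kinase complexes. The Cdkn2a gene also encodes ARF, which restrains Mdm2, the ubiquitin ligase that keeps the transcription factor p53 low, and p53 in turn induces Cdkn1a, Mdm2 and the apoptosis gene Bax. Cultured mouse fibroblasts often lose Arf or p53 function when they become immortal, and the labels do not say how these lines were immortalized. H3K4me3 is a histone mark of active promoters, H3K27me3 is the mark of Polycomb repression, and the succinyllysine antibody recognises lysines that carry a succinyl group, on histones or on other chromatin proteins.

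Over the whole series the lists held 10888 succinyllysine regions (median width 300 bp), 26654 H3K4me3 regions (1100 bp) and 98342 H3K27me3 regions (600 bp). The fibroblast label fitted the H3K4me3 list. It had regions at an end of 13 of 16 fibroblast marker genes, beside 55.6% of all protein-coding genes. Of 19 markers of other cell types 3 had one, namely Epcam (1400 bp), Cdh1 (1000 bp) and Spi1 (600 bp). Among the fibroblast markers, Thy1 and Lum had none on the gene at all, and Postn had one only inside the gene. Read depth is unknown, and the lists give no height or score, so a region is described by its place and width alone.

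H3K4me3 lay on nearly all of these genes, succinyllysine at 5 of them and H3K27me3 at 1. A gene was counted as marked at an end when a region came within 1000 bp of either outer end of its RefSeq body. Succinyllysine was at an end of 5 of the 10 genes (Cdkn1b, Cdkn2a, Cdkn2c, Trp53 and Bax), beside 5.42% of all 21887 protein-coding genes. H3K4me3 was at an end of 8 genes, beside 55.6% of all genes, and inside Cdkn1a, which left Cdkn1c as the only one of the 10 with no H3K4me3 on the gene. H3K27me3 was at an end of Cdkn1c alone, beside 13.6% of all genes. Regions anywhere on the gene or within 1000 bp of it gave the same 5 genes for succinyllysine, beside 10.1% of all genes. They gave the same 1 gene for H3K27me3, beside 20.1%, and 9 for H3K4me3, beside 61.3%. Both succinyllysine and H3K4me3 were at the ends of 5 genes, beside 4.7% of all genes. When the midpoint of a region had to lie in the end window, the counts were 3 genes for succinyllysine, beside 4.08% of all genes, and 2 for H3K4me3, beside 36.9%. Within 50 kb, all 10 genes had an H3K4me3 region, beside 82.3% of all genes. The counts are a description, with no test, of 10 named genes chosen with earlier results of these data known. Cdkn2a and Cdkn2b share all the regions of their windows.

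Cdkn1b, whose product p27 holds back cyclin E and cyclin A complexes, had the widest succinyllysine region of the 10 genes. The gene spans chr6:134920401-134925525 on the plus strand. An 8200 bp succinyllysine region (134920501 to 134928700) began 100 bp after the RefSeq start and ran 3175 bp past the other end of the gene, covering 98.0% of it. Of the 10888 succinyllysine regions this one ranked 22nd by width, and 8 of the 21887 protein-coding genes, Cdkn1b included, had as large a share of their body covered. Among the 2962 genes within 1.5-fold of its length there were 2. It lay wholly within a 10300 bp H3K4me3 region (134918401 to 134928700), and both regions ended at the same base. The H3K4me3 region began 2000 bp before the Cdkn1b start and abutted another of 3200 bp, with no gap between them.

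Beyond the gene the same pair of marks came back at the next starts. At 300 bp past the end of the wide region, a 1600 bp succinyllysine region (134929001 to 134930600) covered the start of Lockd, a long noncoding RNA gene downstream of Cdkn1b, inside a 3100 bp H3K4me3 region. On the other side, 21300 bp before Cdkn1b, a 1900 bp succinyllysine region covered the divergent starts of Gpr19, an orphan receptor gene, and the noncoding 2810454H06Rik, inside a 3400 bp H3K4me3 region. No H3K27me3 region was listed in the window. The 250 bases before the Cdkn1b start lay wholly on H3K4me3 and just outside the succinyllysine region, and they are shown because H3K4me3 extends over them while succinyllysine begins 100 bp after the start. Capitals mark CG dinucleotides, of which the stretch holds 28, beside a median of 10 over 21263 starts of protein-coding genes (RefSeq, GRCm38.p6, chr6:134920151-134920400, plus strand).
Cdkn1b: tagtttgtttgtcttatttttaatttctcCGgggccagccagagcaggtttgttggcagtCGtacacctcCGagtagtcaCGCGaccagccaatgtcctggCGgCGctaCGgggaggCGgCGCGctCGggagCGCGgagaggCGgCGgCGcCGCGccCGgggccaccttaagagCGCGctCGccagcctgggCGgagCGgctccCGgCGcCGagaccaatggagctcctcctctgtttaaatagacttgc

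Cdkn1a, whose product p21 is the main p53-induced cell cycle inhibitor, was marked at 1 of its 2 starts and by H3K4me3 only. The gene spans chr17:29090979-29100722 on the plus strand, with RefSeq starts 2790 bp apart. A 2300 bp H3K4me3 region (29093301 to 29095600) ran from 468 bp before the second start to 1831 bp after it, and no region of any list covered the first start. This was the narrowest of the widest H3K4me3 regions on the 9 genes that had one, and 77.0% of all H3K4me3-marked genes had one at least as wide. A second H3K4me3 region of 1300 bp (29077801 to 29079100) lay 11878 bp before the gene, at the upper end of Trp53cor1, which encodes a p53-induced long noncoding RNA. No succinyllysine was listed within 50 kb of Cdkn1a. A succinyllysine region in this range was listed for 6 of the 10 genes, beside 30.2% of all genes. A 600 bp H3K27me3 region lay 28378 bp past the gene, inside Rab44.

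The 250 bases before each Cdkn1a start are shown because the starts differ both in mark and in sequence. The first start had 2 CG dinucleotides before it, and its stretch held a match to the p53 response element (a pair of p53 half-sites with no spacer) at 19 of 20 letters, beginning 51 bases before the start. Such a match, on either strand, since the element reads alike on both, occurred before 0.0611% of the 21263 starts. The capitals in the first sequence mark that match (chr17:29090729-29090978, plus strand). The second start had 19 CG dinucleotides, which its capitals mark (chr17:29093519-29093768, plus strand), and the whole stretch lay on H3K4me3. A match is a description of the letters and not of p53 binding.
Cdkn1a, first start: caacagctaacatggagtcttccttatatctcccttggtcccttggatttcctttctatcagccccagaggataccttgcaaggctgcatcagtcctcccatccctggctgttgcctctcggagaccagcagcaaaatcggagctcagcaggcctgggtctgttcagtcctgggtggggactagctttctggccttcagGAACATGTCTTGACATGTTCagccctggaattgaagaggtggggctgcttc
Cdkn1a, second start: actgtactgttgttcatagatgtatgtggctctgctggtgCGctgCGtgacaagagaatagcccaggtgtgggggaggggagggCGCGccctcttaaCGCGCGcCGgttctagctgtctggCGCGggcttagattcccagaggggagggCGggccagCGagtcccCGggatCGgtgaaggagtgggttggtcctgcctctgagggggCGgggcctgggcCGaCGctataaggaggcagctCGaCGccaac

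Cdkn1c, which encodes p57 and is an imprinted gene read mainly from the maternal copy, was the only one of the 10 genes with H3K27me3 at the gene and with neither other mark on it. The gene spans chr7:143458339-143461059. No RefSeq start or strand was at hand for Cdkn1c, so its regions were not placed relative to a start. Its window held 26 of the 27 H3K27me3 regions, all of 1900 bp or less, which together covered 21.4% of the window, more than in 92.5% of all genes. They were unevenly placed. Between Kcnq1, the potassium channel gene that hosts the antisense RNA of this imprinted domain, and Cdkn1c, 19 regions of 300 to 1900 bp lay wholly between the genes, from 143430701 to 143454800. With the one that reached Cdkn1c, they covered 60.5% of the 31288 bp between the genes.

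At the gene itself H3K27me3 was sparser than between the genes. A 900 bp region (143457501 to 143458400) ended just inside the lower end and a 200 bp region (143458701 to 143458900) lay further in, so that 262 bp of the gene, 9.63%, was covered. As large a share was covered in 10.2% of all protein-coding genes and in 12.3% of the 1890 within 1.5-fold of its length. Past the upper end the nearest of 4 regions was 22441 bp away, and these were 300 to 700 bp wide. The only H3K4me3 region of the window (1300 bp, 143501701 to 143503000) lay 40641 bp away at Phlda2, another imprinted growth-restraining gene. The 2 parental copies cannot be told apart in these lists.

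**Figure D1:**
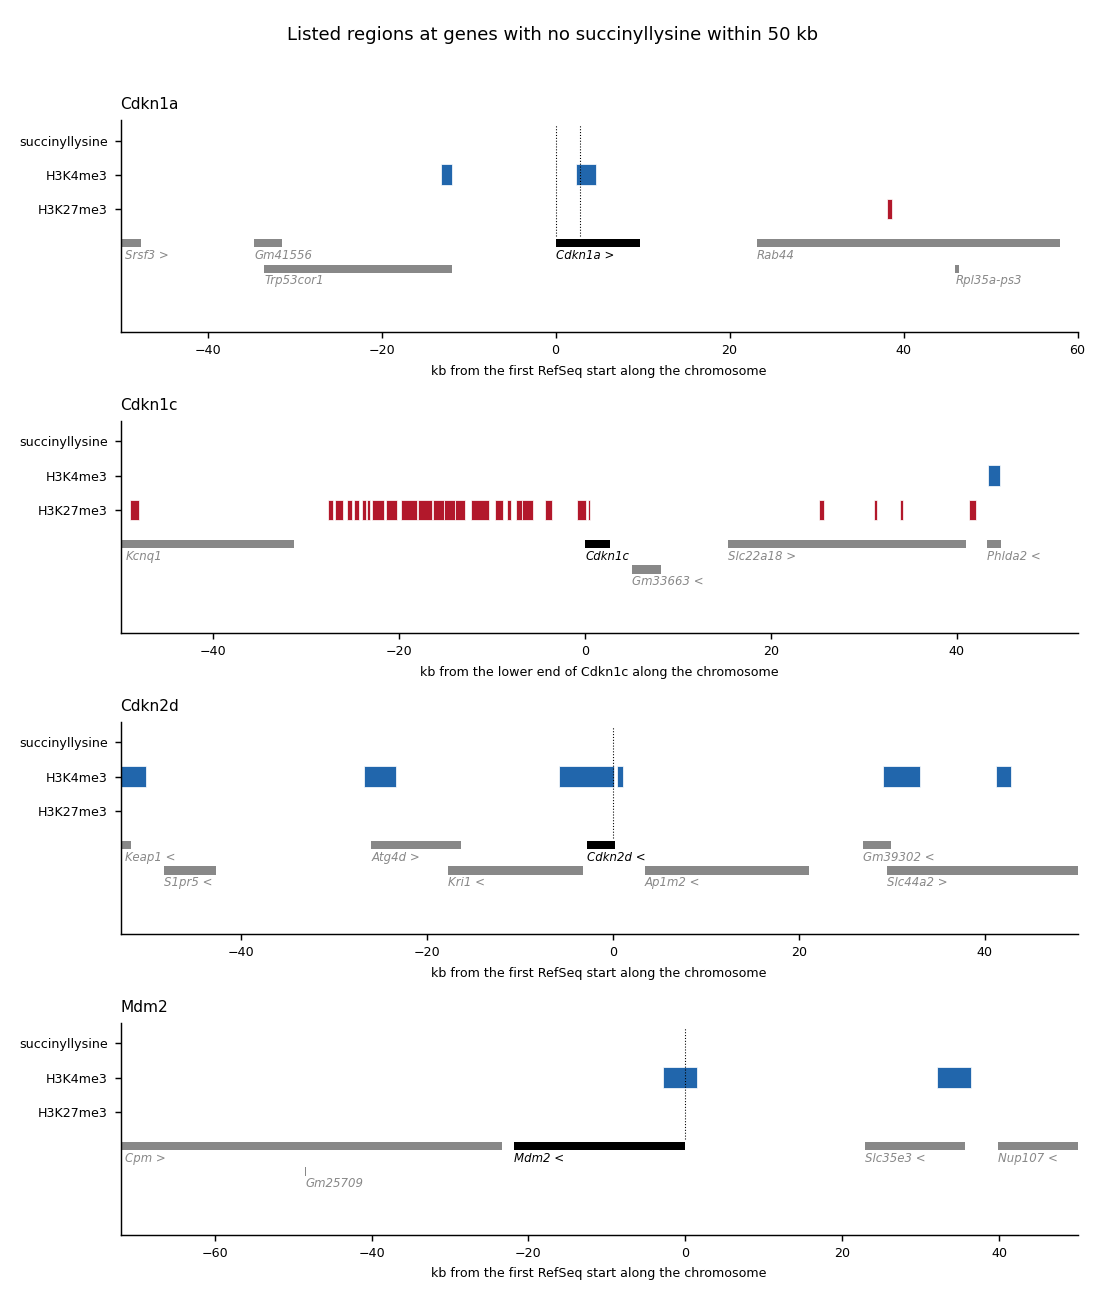
Listed regions around Cdkn1a, Cdkn1c, Cdkn2d and Mdm2, in kb along the chromosome from the first RefSeq start (from the lower gene end for Cdkn1c). Coloured blocks are listed regions, black bars the genes described, grey bars other genes, dotted lines RefSeq starts, and > or < the direction of transcription where RefSeq starts give it. The 26 H3K27me3 regions of the Cdkn1c window crowd on the Kcnq1 side, while Cdkn2d and Mdm2 have H3K4me3 alone.

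Cdkn2a, the source of the INK4 inhibitor p16 and of ARF, was covered by 2 of the wider H3K4me3 regions of the series and had a succinyllysine region upstream of each of its starts. The gene spans chr4:89274473-89294619 on the minus strand. Its first start serves ARF and the second, 12427 bp further in, serves p16. A 12900 bp H3K4me3 region (89286001 to 89298900, 24th widest of 26654) covered the ARF start and a 7200 bp one (89277601 to 89284800) the p16 start, with 1200 bp between them. Together they covered 78.5% of the gene. Of all 21887 protein-coding genes, 828 had as large a share covered, and of the 4913 within 1.5-fold of its length 3 did, Cdkn2a included in both.

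Succinyllysine stopped short of both starts. At the ARF start a 1700 bp region (89295101 to 89296800) lay from 482 to 2181 bp upstream and covered the start of Gm12610, a noncoding gene that runs the other way. At the p16 start an 1800 bp region (89282501 to 89284300) lay from 309 to 2108 bp upstream, inside the gene between the 2 starts. Both were wholly on H3K4me3. Of the 904 protein-coding genes with succinyllysine within 1000 bp of a RefSeq start, the region covered the start in 271, lay only upstream in 385 and only downstream in 202. The 250 bases before each start, shown for the contrast in CG dinucleotides (capitals), lay on H3K4me3 and outside succinyllysine. The ARF start had 40 (chr4:89294620-89294869, minus strand) and the p16 start had 7 (chr4:89282193-89282442, minus strand).
Cdkn2a, first start: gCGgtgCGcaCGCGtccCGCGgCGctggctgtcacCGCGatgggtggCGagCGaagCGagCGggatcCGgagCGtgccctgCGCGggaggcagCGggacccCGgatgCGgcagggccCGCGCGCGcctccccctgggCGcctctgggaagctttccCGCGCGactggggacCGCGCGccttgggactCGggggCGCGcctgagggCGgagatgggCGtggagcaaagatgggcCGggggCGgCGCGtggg
Cdkn2a, second start: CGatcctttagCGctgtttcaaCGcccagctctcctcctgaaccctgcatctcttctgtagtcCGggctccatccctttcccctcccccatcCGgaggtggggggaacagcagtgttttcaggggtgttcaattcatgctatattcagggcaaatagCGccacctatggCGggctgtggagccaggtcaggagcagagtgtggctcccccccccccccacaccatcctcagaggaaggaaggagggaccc

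Cdkn2b, the neighbouring gene for the INK4 inhibitor p15, had H3K4me3 over its whole length and no succinyllysine of its own. It lies 11669 bp from Cdkn2a, at chr4:89306289-89311032 on the minus strand. A 5600 bp H3K4me3 region (89306301 to 89311900) covered 99.7% of the gene and reached 868 bp before the start. A 2300 bp region lay at the other end, 500 bp from the first. The nearest succinyllysine was the region at the ARF start, 9488 bp from Cdkn2b. No H3K27me3 region was listed within 50 kb of either gene, in a locus that Polycomb complexes are known to silence in young fibroblasts and other cells.

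Cdkn2c, the gene of the INK4 inhibitor p18, had the widest H3K4me3 region of the 10 genes as listed and succinyllysine at both ends. With regions within 1000 bp of each other merged, H3K4me3 was wider at Cdkn1b (18600 bp) than at Cdkn2c (13700 bp). Cdkn2c lies at chr4:109660876-109666756 on the minus strand. A single H3K4me3 region of 13700 bp (109655301 to 109669000), 21st widest of its list, covered the whole gene, with 2244 bp before the first start and 5575 bp past the other end. Separate stretches within it carried succinyllysine, so the mark was broken where H3K4me3 was not. A 2000 bp region (109664801 to 109666800) covered both RefSeq starts, which are 1384 bp apart. A 1900 bp region (109661001 to 109662900) lay at the other end of the gene, and a 2400 bp region (109656101 to 109658500) covered the starts of the noncoding 9630013D21Rik.

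Succinyllysine covered 65.6% of the Cdkn2c body, a share that 24 of all 21887 protein-coding genes and 11 of the 3178 within 1.5-fold of its length reached, Cdkn2c included. The 250 bases before the first start are shown because the succinyllysine region covered only the last 44 of them, next to the start. They hold 29 CG dinucleotides, in capitals (chr4:109666757-109667006, minus strand).
Cdkn2c: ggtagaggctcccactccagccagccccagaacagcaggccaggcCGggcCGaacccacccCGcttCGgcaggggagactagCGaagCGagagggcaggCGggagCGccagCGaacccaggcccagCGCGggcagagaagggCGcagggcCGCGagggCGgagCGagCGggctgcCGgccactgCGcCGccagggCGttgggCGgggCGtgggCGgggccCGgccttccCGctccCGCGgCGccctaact

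Cdkn2d, the gene of the INK4 inhibitor p19, had H3K4me3 alone. It lies at chr9:21288459-21291421, and its RefSeq start (21291209, minus strand) was 91 bp from the edge of a 5900 bp H3K4me3 region (21285401 to 21291300) that covered 95.9% of the gene. The same region took in the start of Kri1, a ribosome biogenesis gene. After a gap of 300 bp, a 700 bp H3K4me3 region followed upstream. Neither succinyllysine nor H3K27me3 was listed within 50 kb.

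**Figure D2:**
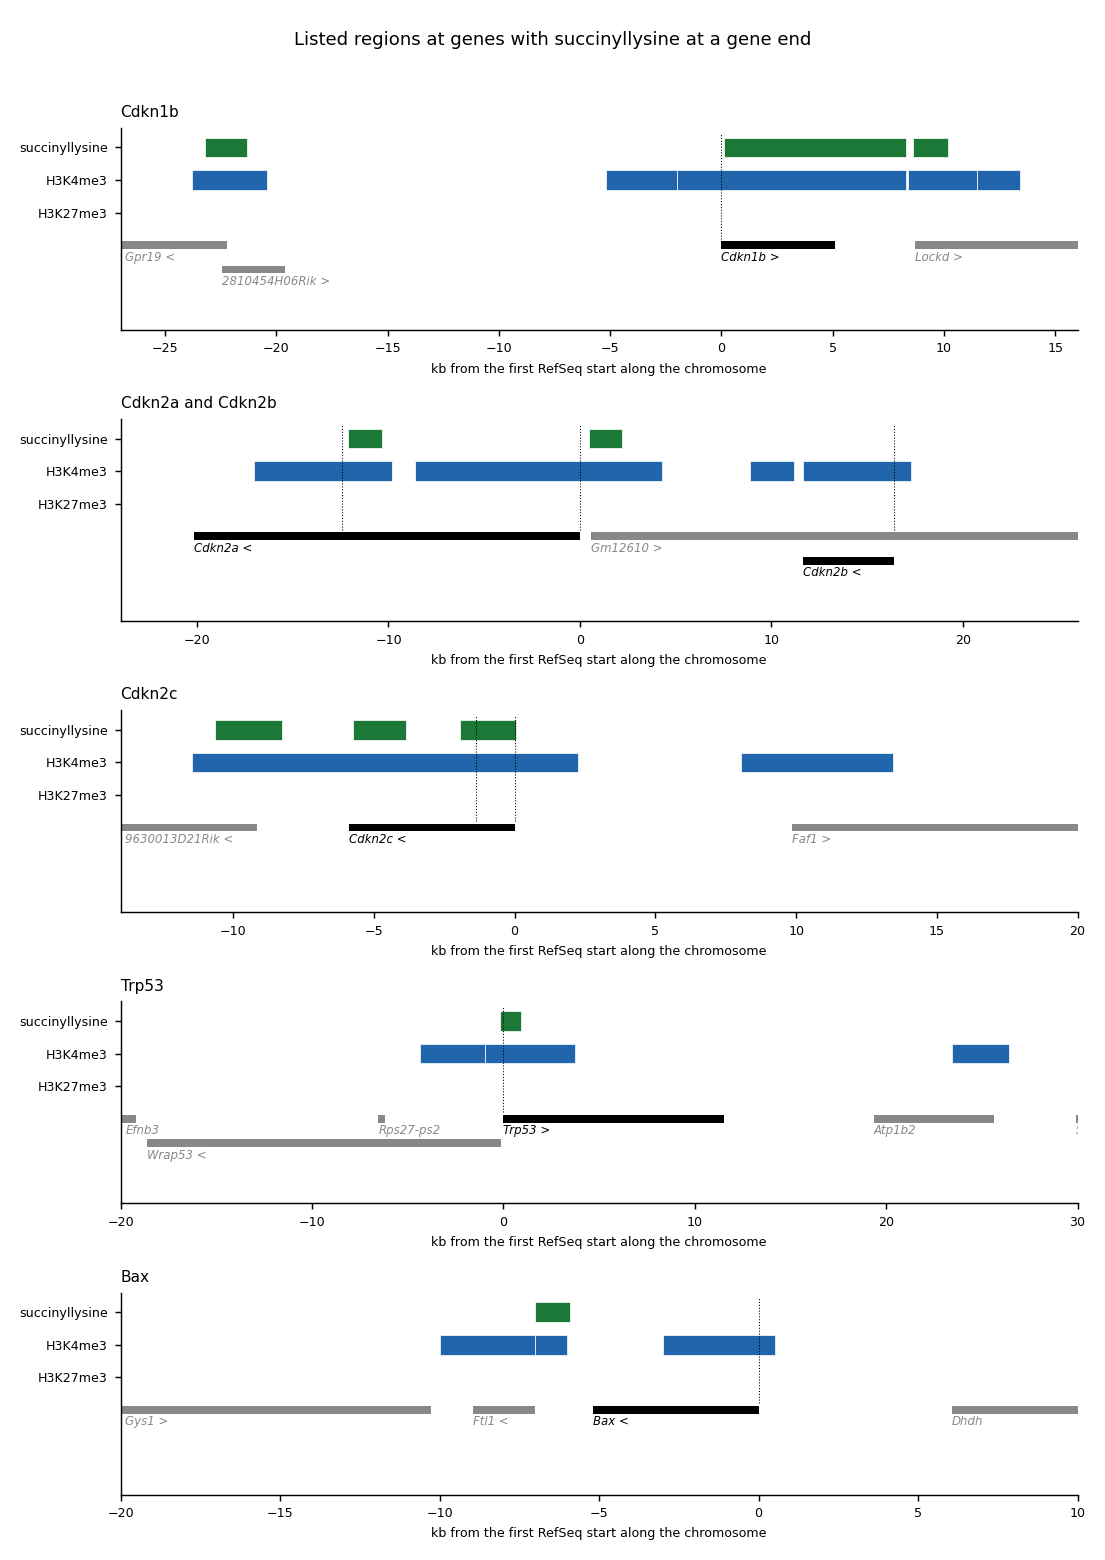
Listed regions around the 5 genes with succinyllysine at an end, and Cdkn2b, in kb along the chromosome from the first RefSeq start of Cdkn1b, Cdkn2a, Cdkn2c, Trp53 or Bax. Coloured blocks are listed regions (a thin white line parts regions that abut), black bars the genes described, grey bars other genes, dotted lines RefSeq starts, and > or < the direction of transcription where RefSeq starts give it. The 8200 bp succinyllysine region at Cdkn1b begins 100 bp after the start, each of the 2 at Cdkn2a lies upstream of its nearest Cdkn2a start, and the one counted at Bax lies beside Ftl1.

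Trp53, the gene of p53 itself, carried succinyllysine across its start and that of a divergent neighbour. Trp53 spans chr11:69580348-69591873 on the plus strand, and 97 bp separate it from Wrap53, which encodes a telomerase and Cajal body protein. An 1100 bp succinyllysine region (69580201 to 69581300) covered the starts of both, from 158 bp before the Trp53 start to 941 bp after it. It lay within a 4700 bp H3K4me3 region (69579401 to 69584100), which abutted another of 3400 bp inside Wrap53, over a second start of that gene. H3K4me3 covered 32.6% of the Trp53 body and succinyllysine 8.27%. The 97 bases between the genes, wholly under both marks, hold 5 CG dinucleotides, in capitals (chr11:69580251-69580347, plus strand).
Wrap53 to Trp53: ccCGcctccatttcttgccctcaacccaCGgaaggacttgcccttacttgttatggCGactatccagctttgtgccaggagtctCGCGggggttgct

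Mdm2, the p53-induced gene whose product degrades p53, had H3K4me3 at its start and no other mark within 50 kb. The gene spans chr10:117688875-117710758 on the minus strand. A 4400 bp H3K4me3 region (117707901 to 117712300) ran from 1542 bp before the start to 2857 bp after it and covered 13.1% of the gene. The other H3K4me3 region of the window, also 4400 bp wide, lay at the start of Slc35e3, 32042 bp away.

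Bax, a p53 target that opens the mitochondrial outer membrane in apoptosis, had H3K4me3 at its start and succinyllysine only past its far end. The gene spans chr7:45461695-45466903 on the minus strand. A 3500 bp H3K4me3 region (45463901 to 45467400) covered the Bax start. The 1100 bp succinyllysine region (45459901 to 45461000) lay 694 bp beyond the other end of Bax and began 15 bp before the start of Ftl1, the ferritin light chain gene that follows. A 1000 bp H3K4me3 region held 1000 of its 1100 bp and abutted a 3000 bp one that covered the Ftl1 start. No base of Bax was under succinyllysine, and with end windows of 500 bp Bax was not counted as marked, which left 4 genes beside 4.67% of all genes.

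The 250 bases before the Ftl1 start are shown because 236 of them lay in the succinyllysine region that was counted at Bax. They hold 17 CG dinucleotides, in capitals (chr7:45459887-45460136, minus strand).
Ftl1: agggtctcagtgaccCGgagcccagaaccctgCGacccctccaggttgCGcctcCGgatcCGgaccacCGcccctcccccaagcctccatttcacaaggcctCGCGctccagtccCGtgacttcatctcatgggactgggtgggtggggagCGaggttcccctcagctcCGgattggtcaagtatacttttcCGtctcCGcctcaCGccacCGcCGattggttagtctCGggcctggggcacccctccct

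Across the 10 genes, the succinyllysine regions were wide for their list and lay on H3K4me3. Their widths were 1100 to 8200 bp, with a median of 1850 bp, beside 300 bp over the whole list. Of the whole list 18.3% was 1100 bp or wider, a cut set by the narrowest of these 10. All 10 touched an H3K4me3 region and 9 were wholly within one, while of the 1993 succinyllysine regions of 1100 bp or more, 949 touched one (47.6%) and 498 were wholly within. The 10 regions come from 5 loci, with 3 at Cdkn1b, 3 at Cdkn2c and 2 at Cdkn2a, and are not independent. Of the 37 H3K4me3 regions, 8 touched succinyllysine (21.6%), beside 6.33% of all H3K4me3 regions and 10.5% of those of 3200 bp or more, the median width of the 37.

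H3K4me3 width varied widely among the genes. The widest region on the gene or within 1000 bp was 13700 bp at Cdkn2c, 12900 bp at Cdkn2a, 10300 bp at Cdkn1b, 5900 bp at Cdkn2d, 5600 bp at Cdkn2b, 4700 bp at Trp53, 4400 bp at Mdm2, 3500 bp at Bax and 2300 bp at Cdkn1a. The median of these 9 was 5600 bp, beside 3400 bp over the 13421 marked genes. Of the marked genes, 0.328% had a region as wide as that of Cdkn2c, 0.343% as that of Cdkn2a and 0.820% as that of Cdkn1b. Taking only the widest succinyllysine region on each gene or within 1000 bp, these 3 genes had 2000, 1800 and 8200 bp, and Trp53 and Bax had 1100 bp each. The median of the 5 was 1800 bp, beside 1000 bp over the 2218 genes marked by succinyllysine. Of those 2218, 46.0% had a region as wide as that of Trp53 or Bax, and 23.4% as that of Cdkn2a. For Cdkn2c the share was 19.3% and for Cdkn1b 0.902%. Cdkn2d and Cdkn2b, next in H3K4me3 width as listed, had no succinyllysine at the gene. This order depends on how the list is split, since with abutting regions joined H3K4me3 at Trp53 was 8100 bp wide, above Cdkn2d and Cdkn2b.

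**Figure D3:**
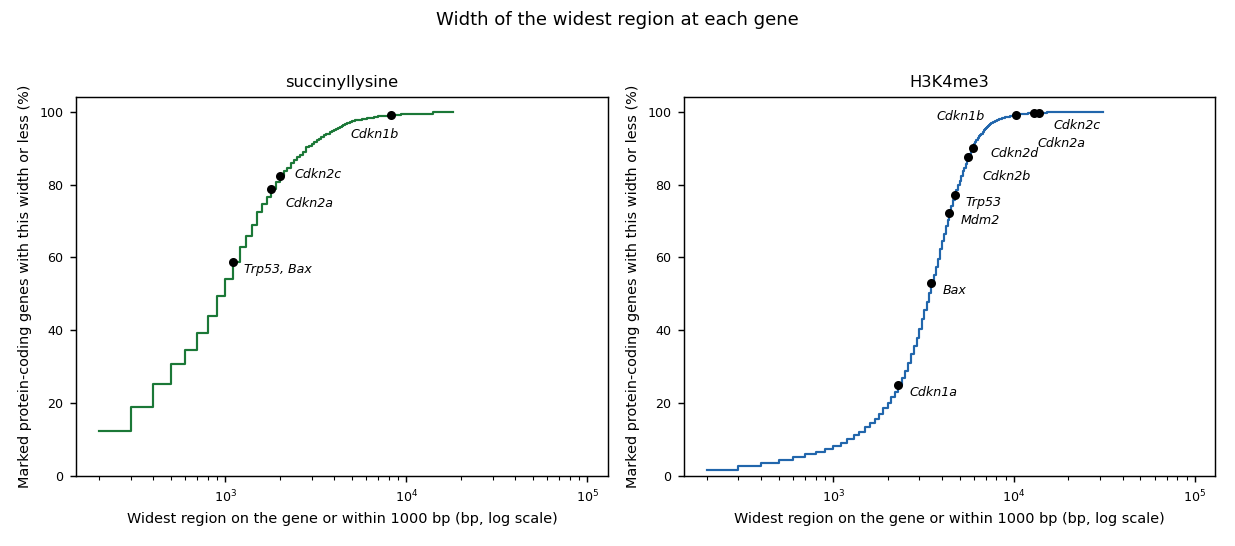
Width of the widest succinyllysine (left) and H3K4me3 (right) region on each marked protein-coding gene or within 1000 bp of it, in bp on a log scale, against the percentage of marked genes with that width or less. Lines are all marked genes and black points are the genes described. Cdkn1b stands near the top of both curves, with 8200 bp of succinyllysine and 10300 bp of H3K4me3.

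Counted over the gene with 50 kb on each side, H3K4me3 covered a median of 18.0% of the window, beside 3.78% over all genes. Cdkn2b (26.7%), Cdkn2a (23.3%) and Cdkn1b (20.8%) were above the 95th percentile of all genes (19.7%), and Cdkn1a (3.28%) and Cdkn1c (1.27%) were below the median. The windows of Cdkn2a and Cdkn2b held the same 28000 bp of H3K4me3, and their shares differ only because Cdkn2b is the shorter gene. Succinyllysine covered 11.1% of the Cdkn1b window, 5.95% of the Cdkn2c window and 3.34% of the Cdkn2b window, against a 95th percentile of 3.07%. The regions in the Cdkn2b window were the 2 upstream of the Cdkn2a starts, beyond Cdkn2b, and covered 2.91% of the longer Cdkn2a window. Succinyllysine covered 0 of the windows of Cdkn1a, Cdkn1c, Cdkn2d and Mdm2. H3K27me3 was listed in 2 of the 10 windows, beside 51.5% of all genes.

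**Figure D4:**
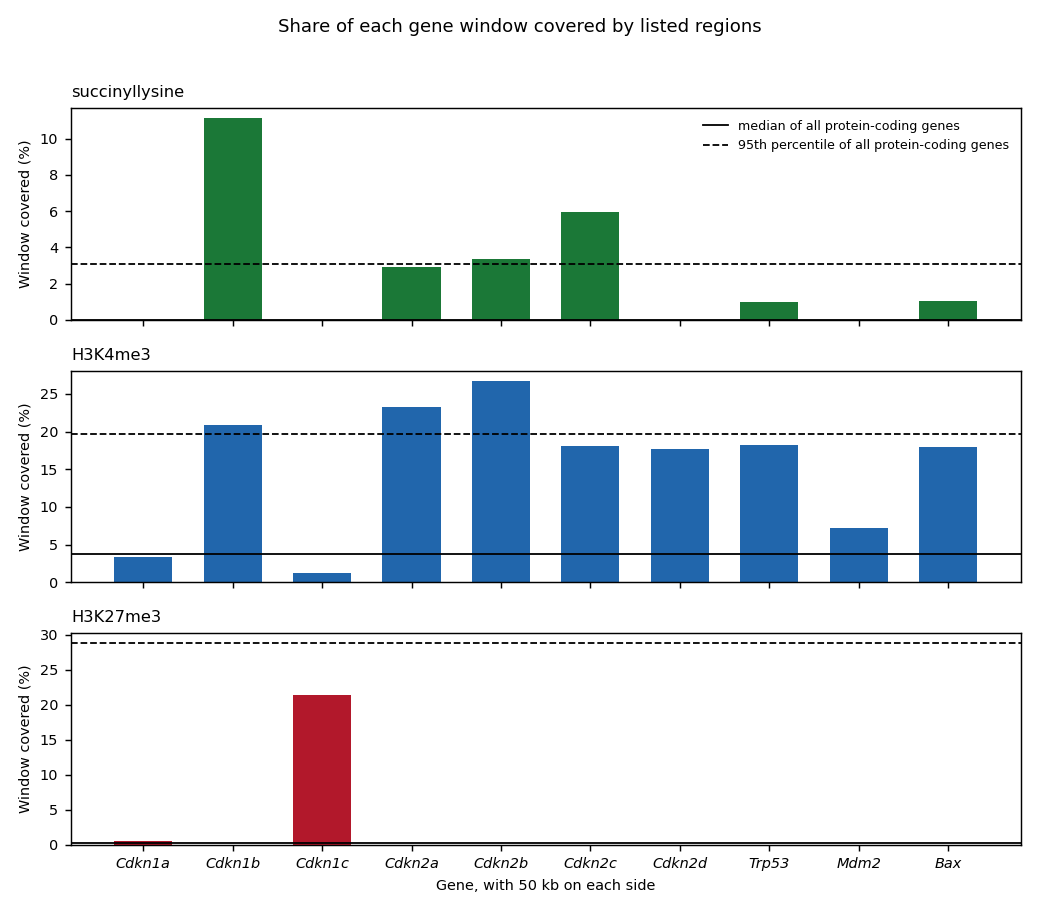
Percentage of each gene window (the gene with 50 kb on each side) covered by listed succinyllysine, H3K4me3 and H3K27me3 regions. Bars are the 10 genes, the solid line is the median and the dashed line the 95th percentile of 21887 protein-coding genes. Cdkn1b is highest for succinyllysine at 11.1%, Cdkn2b for H3K4me3 at 26.7% and Cdkn1c for H3K27me3 at 21.4%. The Cdkn2a and Cdkn2b windows hold the same succinyllysine and H3K4me3 regions, and the Cdkn2b window is the shorter.

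The marks were also read at the 12 RefSeq starts of 9 of the genes. H3K4me3 covered a start of all 9 genes, beside 54.4% of the 17492 protein-coding genes with a start in the table, and so lay within 1000 bp of one in all 9, beside 56.8%. Succinyllysine lay within 1000 bp of a start in 4 genes, beside 5.17%, and covered one in 2, beside 1.55%. H3K27me3 covered a start in 0 of the 9, beside 4.8%, and lay within 1000 bp in 0, beside 10.9%. Of the 12 starts H3K4me3 covered 11 and succinyllysine covered 3 (both Cdkn2c starts and Trp53), beside 53.1% and 1.46% of all 21263 starts of protein-coding genes. The start that H3K4me3 left out was the first of Cdkn1a, which had the fewest CG dinucleotides of the 12. Over all starts, H3K4me3 lay within 1000 bp of 6.98% of those with 0 to 2 CG dinucleotides in the 250 bases before them, of 36.1% with 3 to 9, and of 85.0% with 10 to 19. For succinyllysine these shares were 1.87%, 3.97% and 6.85%. With 20 to 29 CG dinucleotides and with 30 or more, the shares were 92.2% and 93.3% for H3K4me3. For succinyllysine they were 7.52% and 6.75%, so its share did not keep rising. The second starts of Cdkn2a and Cdkn2c, with 7 and 6, and that of Trp53, with 9, carried H3K4me3 with fewer CG than the other marked starts of the set. The GC box GGGCGG, on either strand, stood before 7 of the 12 starts, beside 42.6% of all starts, and each such box holds a CG. Of the other motifs counted, CCAAT stood before 4 of the 12, beside 35.4% of all starts. The letters TATAAA of the TATA box stood before 1, beside 11.6%, and the E box CACGTG before 1, beside 6.63%. All were counted as exact letters anywhere in the 250 bases, on either strand, so a count does not describe a working element.

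**Figure D5:**
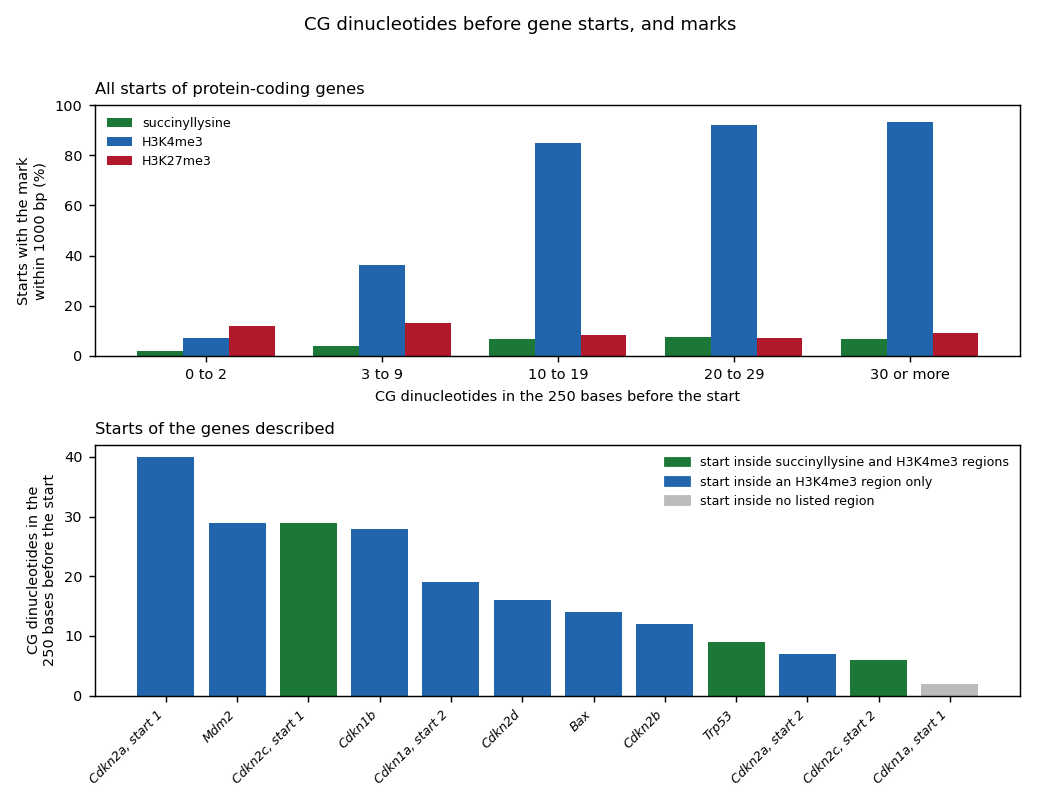
Top, percentage of starts of protein-coding genes with succinyllysine, H3K4me3 or H3K27me3 within 1000 bp, by the number of CG dinucleotides in the 250 bases before the start. Bottom, that number for each RefSeq start of the genes described, coloured by the listed regions that cover the start. The first Cdkn1a start, with 2, is in no listed region, and the ARF start of Cdkn2a, with 40, is in an H3K4me3 region.

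Other genes of the pathway, 69 in 4 lists, were mostly marked by H3K4me3 alone. At a gene end H3K4me3 was listed for 61 of them (88.4%, beside 55.6% of all genes), succinyllysine for 6 (8.70%, beside 5.42%) and H3K27me3 for 2 (2.90%, beside 13.6%). Of 21 p53 targets, 20 had H3K4me3 and 2 had succinyllysine, namely the antiproliferative gene Btg2 (3800 bp) and the DNA repair gene Xpc (1100 bp). Of 21 kinase, cyclin and RB-family genes, 19 had H3K4me3 and 3 had succinyllysine, namely Cks1b, a kinase-binding subunit (2800 bp), Cdk4, the kinase that INK4 proteins bind (1400 bp), and the transcription factor gene E2f3 (900 bp). Of 16 regulators of INK4-ARF, 14 had H3K4me3 and 1 had succinyllysine, Ezh2, the methyltransferase of Polycomb (700 bp).

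None of 11 p53 regulators had succinyllysine at an end, beside 5.42% of all genes, and 8 had H3K4me3 there, beside 55.6%. Counted on the gene or within 1000 bp, H3K4me3 was listed for 10 of them, beside 61.3% of all genes. By the same count it was listed for 20 p53 targets, all 21 kinase, cyclin and RB-family genes and all 16 INK4-ARF regulators. For succinyllysine these counts were 1, 3, 4 and 3, in the same order of lists, beside 10.1%. The 2 genes with H3K27me3 were Trp73, a p53 relative, with a 7200 bp region, and Ccnd2, which encodes cyclin D2, with 700 bp. Both also had H3K4me3 at an end, of 1000 bp and 3200 bp. The median width of the widest H3K4me3 region at the ends was 3300 bp for p53 regulators, 3400 bp for p53 targets, 4300 bp for kinase, cyclin and RB-family genes and 4900 bp for INK4-ARF regulators.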

How the data were processed

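The 10 genes, the pathway lists and the cell type markers were chosen with earlier results of these data known. For each antibody the authors deposited a single list, whose values are start and end positions, not read counts. Bowtie2 2.2.3 and mm10 are named in the submitters' processing notes. Peak caller, threshold, use of input and any pooling of samples are not stated in the labels. All starts ended in 01 and all ends in 00, so positions were taken as 1-based on a 100 bp grid. Gene bodies came from a RefSeq table of GRCm38.p6, which shares mm10 coordinates. Starts, strands and sequences came from a RefSeq promoter table that matched 9 of the 10 genes (not Cdkn1c) and 17492 of 21887 protein-coding genes. A region was put at a gene end when at least 1 bp lay within 1000 bp of an outer end, otherwise inside the gene or beyond it up to 50000 bp. Ranks and shares over all genes include the genes described. No test was run. Pathway genes were named when succinyllysine or H3K27me3 lay at an end. Neighbouring genes were named when a succinyllysine region, or the widest region of another mark in the window, touched an end. Kcnq1, Rab44 and Trp53cor1 were named after their values were seen. Python 3.11.15 with pandas 2.3.3 was used, and the assignment was tested on simulated data. Read depth is unknown, so no interval was computed.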

Additional observations from a re-analysis of the deposited data

How the results depend on the processing

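No paired analysis was possible because each list stands for all 4 ChIP samples of its antibody and holds no value per sample, and for the same reason no replicate could be left out. Of 30 alternatives, 20 gave a count within 1.5 times that reported. With the midpoint of a region in the end window, succinyllysine was counted at 3 genes and H3K4me3 at 2. At RefSeq starts alone H3K27me3 was at 0 of 9 genes, Cdkn1c not among them. With flanks of 20000 bp there were 21 H3K4me3 and 13 H3K27me3 regions, and with 100000 bp 61 and 44, beside 16 for succinyllysine. Merging regions within 1000 bp left 9 H3K27me3 regions, and keeping those above the list median in width left 15. Joining regions with no gap was added after the data were seen and gave 10, 33 and 25 regions for succinyllysine, H3K4me3 and H3K27me3. The lists hold no score, so no stricter threshold could be set.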

Other observations

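Several H3K4me3 regions near these genes abut, with the first base of one directly after the last base of another. In the whole lists this held for 1911 H3K4me3 regions (7.17%), 417 succinyllysine regions (3.83%) and 12789 H3K27me3 regions (13.0%). Joined across such borders, H3K4me3 at Cdkn1b was 13500 bp wide, against 10300 bp as listed, and that at Trp53 and Wrap53 was 8100 bp, against 4700 bp. Joined in the same way, H3K4me3 over Ftl1 and towards Bax was 4000 bp wide. The widths of Cdkn2a (12900 bp) and Cdkn2c (13700 bp) were the same joined as listed. The origin of the borders between abutting regions was not tested.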
